A study of Homo sapiens with 8 samples.

Results

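CTCF, cohesin and the proteins that load, release and acetylate cohesin were followed across 4 groups of BE2C cells, a human neuroblastoma line with MYCN amplification. The members were the 10 genes CTCF, SMC1A, SMC3, RAD21, STAG1, STAG2, NIPBL, WAPL, PDS5A and ESCO2, taken by their gene symbol in the platform annotation. In total 9 of the 10 were measured, out of 17687 genes on the array, and each of the 9 had 1 probe set. RAD21, the subunit that closes the cohesin ring, had no probe set named for it in the annotation used and is not analysed here.

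Cells were given 0.1% DMSO or GSK-J4 for 24 h, or were transfected with a control siRNA or with KDM6B siRNA at 30 nM for 48 h, with 2 arrays in each group and 8 in all. GSK-J4 is a prodrug that blocks KDM6 enzymes, which strip repressive methyl groups from histone H3, and KDM6B is the family member that the siRNA targets. Its dose is labelled as 2.5 mM, while the study's text gives micromolar doses for cells, so the labelled unit is uncertain. All groups are 1 cell line, and the siRNA sequence behind each array is not stated in the labels. The labels call replicates biological but do not name separate cultures, so the p-values measure the spread between these arrays.

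Cohesin is a ring made of SMC1A, SMC3, RAD21 and either STAG1 or STAG2 that holds sister chromatids together and extrudes loops of chromatin. NIPBL loads the ring and drives extrusion, WAPL with PDS5A releases it, and CTCF, a zinc finger protein bound to DNA, halts it at loop anchors. ESCO2 acetylates SMC3 while DNA is being copied, which locks the ring around sister chromatids, and its messenger RNA is made mainly in dividing cells. After KDM6B was inhibited, the study found CTCF motifs enriched in altered peaks of histone marks, at a later time than the arrays here. That gives the RNA levels of CTCF and cohesin themselves their interest here, although RNA does not measure binding.

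Values are log2 expression and are written as mean ± SD over 2 arrays. Differences are log2 values of treated minus control arrays from limma, with p-values adjusted by Benjamini-Hochberg over all 17687 genes and a threshold of 0.05. Probe sets differ in brightness for the same amount of RNA, so levels are compared between arrays and never between genes. All 9 members exceeded the background set by negative control probes on all 8 arrays. Taken array by array, 73.4% to 77.1% of all genes exceeded it. Replicates correlated across genes with r from 0.994 to 0.996 in 3 groups and with r = 0.974 for KDM6B siRNA, where the arrays differed by over 1 log2 unit in 906 genes, compared with 3 to 8 genes elsewhere. KDM6B itself stood at 8.27 and 8.35 with control siRNA and at 7.22 and 5.76 with KDM6B siRNA, a difference of -1.82 (limma SE 0.39, adjusted p = 0.0878). Both knockdown arrays were lower, with the second far below the first. With GSK-J4, KDM6B stood higher on both arrays, at 9.41 and 9.18 against 8.17 and 8.47 with DMSO (0.98, limma SE 0.39, adjusted p = 0.250).

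ESCO2 was the only member past the threshold in the drug or knockdown comparison, although both calls were lost in several settings given below. It lay at 8.69 and 8.76 on the DMSO arrays and at 7.62 and 7.97 on the GSK-J4 arrays. It lay at 8.67 and 8.78 with control siRNA and at 7.81 and 7.37 with KDM6B siRNA. All 4 treated arrays were below the 4 control arrays, and the GSK-J4 and KDM6B siRNA arrays overlapped each other. The control groups had the same mean to the second decimal, 8.73 ± 0.05 (SD, n = 2) for DMSO and 8.73 ± 0.08 (SD, n = 2) for control siRNA, although vehicle, transfection and time differed between them.

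**Figure D1:**
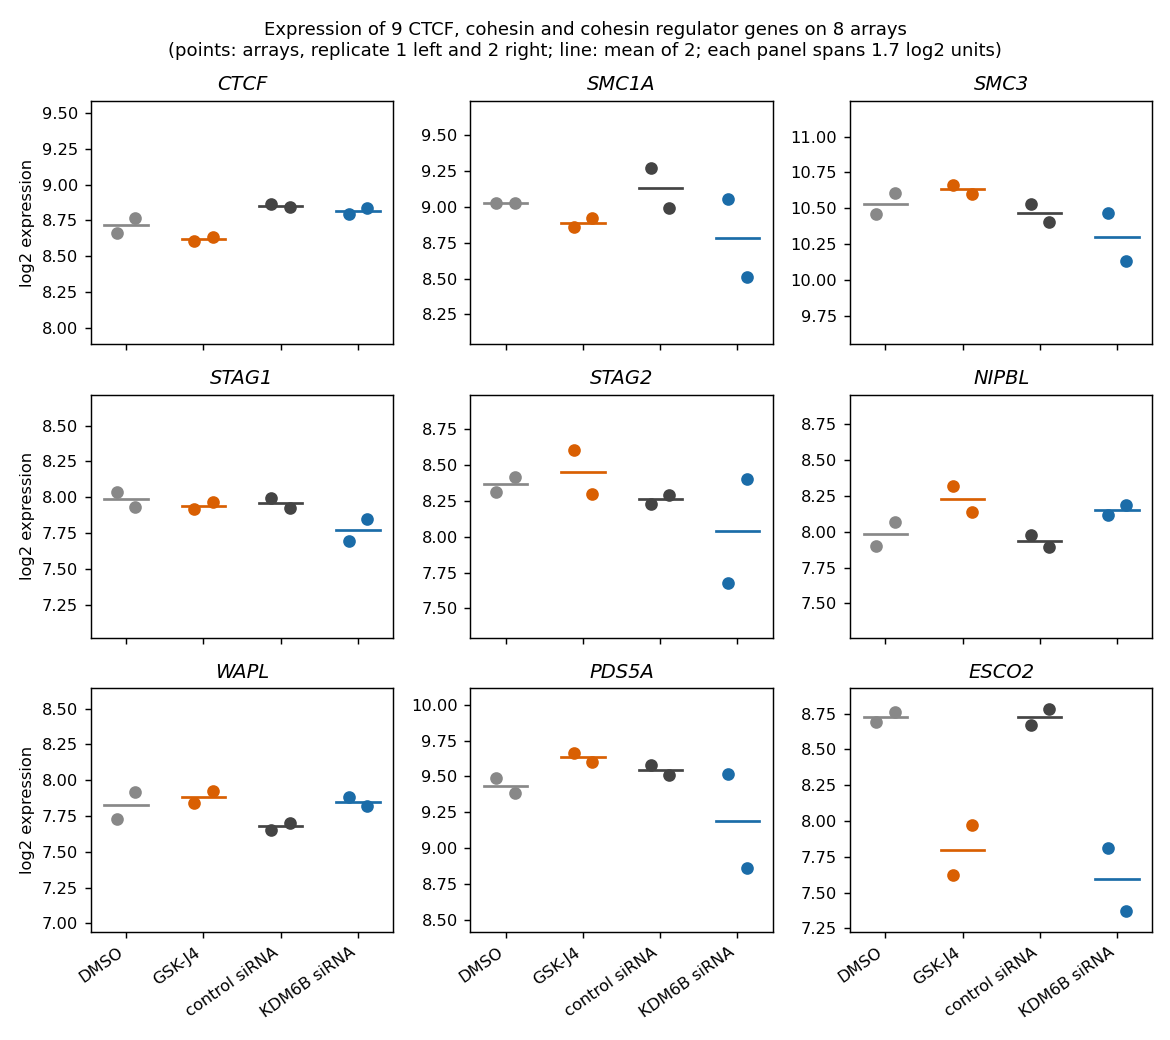
Each panel plots the log2 expression of a member on the 8 arrays, with replicate 1 on the left and replicate 2 on the right of each group and a line at the mean of 2 arrays; all panels span the same range on the vertical axis. ESCO2 lies at 8.67 to 8.78 on the control arrays and at 7.37 to 7.97 on the treated arrays, and CTCF lies within 8.61 to 8.86 on all 8.

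With GSK-J4, ESCO2 fell by 0.93 on the log2 scale, to 52.5% of its level in DMSO (limma SE 0.18, 95% confidence interval -1.34 to -0.51, adjusted p = 0.0330). It was the 1 member of 9 that passed, while 3.7% of all genes passed in either direction, 2.29% as higher and 1.41% as lower. The members were chosen with earlier results of these data known, so the shares describe the members and do not test them. Only 94 genes, 0.531% of those tested, had a lower log2 difference than ESCO2 in this comparison. RNA was taken from whole cultures, so fewer cells that make ESCO2 and less of its RNA per cell cannot be told apart.

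With KDM6B siRNA, ESCO2 fell by 1.13 on the log2 scale, to 45.6% of its level with control siRNA (limma SE 0.18, 95% confidence interval -1.55 to -0.72, adjusted p = 0.0444). It was again the 1 member of 9 that passed, while 0.605% of all genes passed in either direction, 0.113% as higher and 0.492% as lower. As with the drug, these shares are a description, since the choice of members was not blind to these data. The array with the lower KDM6B level, replicate 2, also had the lower ESCO2 level, at -1.36 against the control mean, with replicate 1 at -0.91. In all, 14 genes fell in both comparisons, 0.0792% of those tested, and ESCO2 was among them. The comparisons share no array, but they share an estimate of the spread, pooled over the 4 groups. Over all genes the SD of the gap between replicates was 0.47 with KDM6B siRNA and 0.19 to 0.23 in the other groups. The pooled SE and interval may therefore be too narrow for the knockdown.

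The difference between the effects of inhibitor and knockdown on ESCO2 was 0.20 (95% confidence interval -0.38 to 0.79, adjusted p = 0.822 by limma). None of the 9 members passed in this test, and 0 of 9 had an unadjusted p under 0.05, while 0.922% of all genes passed, 0.746% with a positive and 0.175% with a negative difference. The test does not show that drug and knockdown acted alike on ESCO2, which the interval allows to be lower under either.

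The direction of the ESCO2 differences in the drug and knockdown comparisons held in every setting tried, but the calls rest on few arrays. The drug call was lost on leaving out any DMSO, GSK-J4 or control siRNA array. The adjusted p by limma was then 0.204 (DMSO replicate 1), 0.200 (DMSO replicate 2), 0.255 (GSK-J4 replicate 1), 0.120 (GSK-J4 replicate 2) and 0.0869 (either control siRNA replicate). On leaving out either KDM6B siRNA array it was 0.00305. The knockdown call was lost on leaving out any of the same 6 arrays, with an adjusted p by limma of 0.354 (control siRNA replicate 1), 0.377 (control siRNA replicate 2), 0.126 (either DMSO replicate) and 0.114 (either GSK-J4 replicate). It held with either KDM6B siRNA array alone, at 0.000821 (replicate 1 left out) and 0.0160 (replicate 2 left out). With all arrays, neither call held with the methods' t-test (adjusted p = 0.233 and 0.686) or with a replicate block in limma (0.0717 and 0.109). The knockdown call also ended in limma after quantile normalization (adjusted p = 0.0533), with array weights (0.0941) and with the 4 arrays of the comparison alone (0.415). A group with a left-out array is assumed to vary like the others. Groups of 2 cannot pass an exact permutation test of a single gene, whose smallest two-sided p is 0.333.

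CTCF, the anchor of chromatin loops, had the narrowest range over the 8 arrays among the 9 members. It lay at 8.66 and 8.77 with DMSO and at 8.61 and 8.64 with GSK-J4. It lay at 8.86 and 8.84 with control siRNA and at 8.80 and 8.84 with KDM6B siRNA. The treated arrays were below their controls in both comparisons, although in the knockdown comparison the closest arrays were equal to the second decimal. The differences were -0.093 (95% confidence interval -0.36 to 0.17) and -0.034 (95% confidence interval -0.30 to 0.23), neither past the threshold by limma (adjusted p = 0.757 and 0.928). On the linear scale these are 93.7% and 97.7% of the control level.

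**Figure D2:**
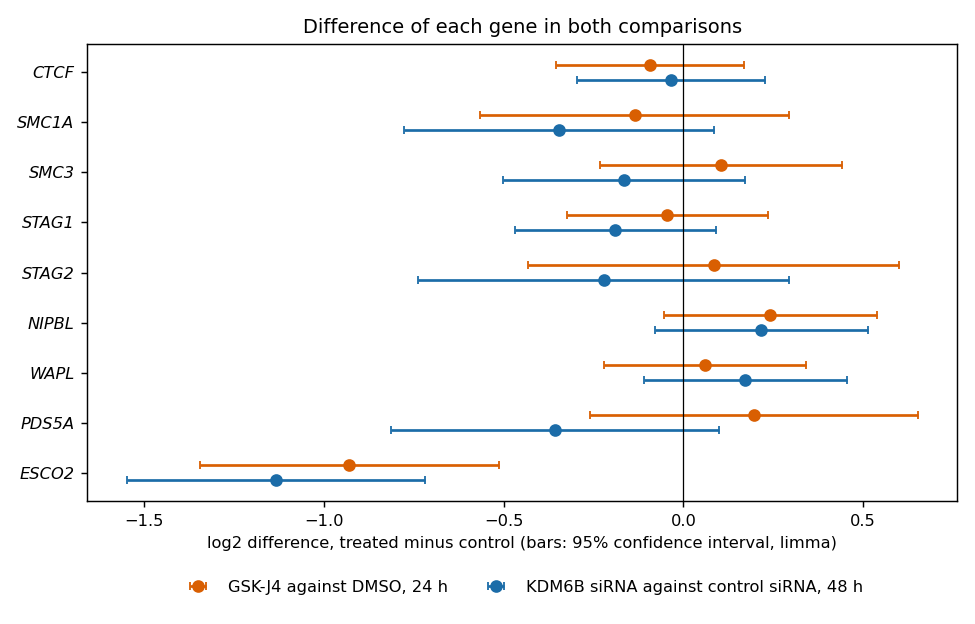
Points give the limma log2 difference of each member, treated minus control, for GSK-J4 at 24 h and for KDM6B siRNA at 48 h, and bars give 95% confidence intervals. The intervals of ESCO2 lie below 0 in both comparisons (-1.34 to -0.51 and -1.55 to -0.72), and those of the 8 other members include 0.

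The ring subunits did not pass in either comparison. SMC3, an ATPase of the ring and the subunit that ESCO2 acetylates, lay at 10.46 and 10.60 with DMSO, 10.67 and 10.60 with GSK-J4, 10.53 and 10.40 with control siRNA, and 10.47 and 10.13 with KDM6B siRNA. Its arrays overlapped between treated and control in both comparisons, with differences of 0.10 and -0.16 (adjusted p = 0.797 and 0.673 by limma). SMC1A, the partner ATPase, lay at 9.03 on both DMSO arrays, 8.86 and 8.92 with GSK-J4, 9.27 and 8.99 with control siRNA, and 9.06 and 8.51 with KDM6B siRNA. The GSK-J4 arrays of SMC1A were below both DMSO arrays, by 0.14 on average, and in the knockdown comparison the arrays overlapped (-0.35, adjusted p = 0.450 by limma).

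STAG1 and STAG2 are alternative subunits that direct the ring to different sites. STAG1 lay at 8.04 and 7.93 with DMSO, 7.92 and 7.96 with GSK-J4, 7.99 and 7.93 with control siRNA, and 7.69 and 7.85 with KDM6B siRNA. The knockdown arrays were both below the controls, by 0.19 on average (adjusted p = 0.533 by limma). STAG2 lay at 8.31 and 8.42 with DMSO, 8.60 and 8.30 with GSK-J4, 8.23 and 8.30 with control siRNA, and 7.68 and 8.40 with KDM6B siRNA. Its knockdown arrays lay on either side of the controls, 0.72 apart, and the difference of -0.22 became 0.14 without KDM6B siRNA replicate 1 and -0.58 without replicate 2.

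NIPBL, the loader, had both treated arrays above both controls in each comparison. It lay at 7.90 and 8.07 with DMSO and at 8.32 and 8.14 with GSK-J4, a difference of 0.24 (95% confidence interval -0.05 to 0.54). It lay at 7.98 and 7.89 with control siRNA and at 8.12 and 8.19 with KDM6B siRNA, a difference of 0.22 (95% confidence interval -0.08 to 0.51). Neither passed (adjusted p = 0.404 and 0.496 by limma), and NIPBL had the highest value among the members in both comparisons.

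WAPL and PDS5A act together in taking cohesin off chromatin. WAPL lay at 7.73 and 7.92 with DMSO, 7.84 and 7.93 with GSK-J4, 7.65 and 7.70 with control siRNA, and 7.88 and 7.82 with KDM6B siRNA. Its knockdown arrays were both above the controls, by 0.17 (adjusted p = 0.580 by limma), while its drug arrays overlapped DMSO. PDS5A lay at 9.49 and 9.38 with DMSO, 9.67 and 9.60 with GSK-J4, 9.58 and 9.51 with control siRNA, and 9.51 and 8.86 with KDM6B siRNA. The drug arrays were both higher, by 0.20. Of the knockdown arrays, replicate 1 lay between the controls and replicate 2 far below them (-0.36, adjusted p = 0.461 by limma).

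The KDM6B siRNA arrays stood apart for several subunits. SMC1A, SMC3 and PDS5A were 0.55, 0.33 and 0.65 lower on replicate 2 than on replicate 1, and STAG2 was 0.72 higher. Without replicate 1, SMC1A and PDS5A passed in the knockdown comparison (-0.62 and -0.68, adjusted p = 0.0175 and 0.00596 by limma), and PDS5A also in the test of the difference of effects (0.88, adjusted p = 0.00894). Without replicate 2 their knockdown differences were -0.073 and -0.031 (adjusted p = 0.845 and 0.934 by limma). The array with the lower KDM6B level is the 1 array on which PDS5A and SMC1A were low, and it has no replicate in this respect.

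Over the 9 members the median difference was 0.060 with GSK-J4 and -0.19 with KDM6B siRNA, against -0.016 and 0.013 over all genes. The 8 members other than ESCO2 ranged from -0.14 (SMC1A) to 0.24 (NIPBL) with GSK-J4 and from -0.36 (PDS5A) to 0.22 (NIPBL) with KDM6B siRNA, and 0 of these 8 had an unadjusted p under 0.05 in either comparison by limma. The arrays of treated and control did not overlap for 5 of 9 members in each comparison, 2 higher and 3 lower, while 54.1% of all genes did so with GSK-J4 (25.5% higher, 28.6% lower) and 41.9% with KDM6B siRNA (22.2% higher, 19.7% lower). The lowest bound of an interval among these 8 was -0.57 with GSK-J4 and -0.81 with KDM6B siRNA, and the highest was 0.65 and 0.51, so changes of that size remain possible.

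E2F factors switch on genes of DNA replication and were a subject of the study, so promoters of the members were searched for motifs of the E2F type. The motif letters were TTTGGCGC, TTTGCCGC, TTTCGCGC and TTTCCCGC, on both strands, in the RefSeq promoter windows of GRCh38.p14, 250 bases before to 50 after each start. The table holds 11 windows of 8 members, without RAD21 and ESCO2. A match was found in 4 windows, in SMC1A (1 of its 2 windows), STAG1, STAG2 (1 of its 3 windows) and NIPBL, while 3.31% of all 35116 windows and 3.99% of genes had a match. The matches are shown in capitals within 30 bases, 5′ to 3′ on the strand of the gene. All belong to members that did not pass in either comparison. Without a window for ESCO2, they cannot be contrasted with the member that fell. The matches begin 20, 183, 51 and 49 bases before the start, in the order listed.
SMC1A at chrX:53422656-53422685, minus strand: gcactgcggcgTTTCCCGCgcgggctacct
STAG1 at chr3:136752543-136752572, minus strand: cagcggccacgTTTCCCGCcccgctggtgc
STAG2 at chrX:123961996-123962025, plus strand: tgttggggggtTTTGGCGCcacttttgttt
NIPBL at chr5:36876709-36876738, plus strand: ggttgttagtgTTTGGCGCcggcggaggga
A match describes these letters and is not a site shown to be bound. The windows of CTCF, SMC3, WAPL and PDS5A hold none of the 4 motifs.

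Other genes of the cohesin cycle were read from lists. Over all genes, 1.41% fell with GSK-J4 and 0.492% with KDM6B siRNA, and 17% and 14.6% had an unadjusted p under 0.05 by limma, which are the shares to set beside the counts of each list. Of 10 genes for loading, release, acetylation and protection, 2 fell with GSK-J4 and 0 rose: SGO2, a shugoshin that guards centromeric cohesin, by 1.18 (SE 0.16, adjusted p = 0.0104), and PTTG1, the securin that restrains separase, by 1.02 (SE 0.16, adjusted p = 0.0177), both by limma. With KDM6B siRNA 0 of the 10 passed by limma, although 6 had an unadjusted p under 0.05. In the same comparison CDCA5, the sororin that counters WAPL once SMC3 is acetylated, stood at -0.74 (adjusted p = 0.05003 by limma, just above the threshold). ESCO1, the paralog of ESCO2 that acetylates SMC3 outside replication, differed by 0.64 and 0.11 (adjusted p = 0.108 and 0.829 by limma), both above 0. CDCA5 and ESCO1 were named after their values were seen.

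Of 14 genes for cohesion built at the replication fork, 1 fell with GSK-J4 and 4 fell with KDM6B siRNA, and 0 rose in either. With KDM6B siRNA the 4 were CLSPN, a fork and checkpoint adaptor, by 1.55, the sliding clamp gene PCNA by 1.00, DSCC1, a part of a clamp loader for cohesion, by 0.76, and the clamp loader subunit RFC2 by 0.73, with adjusted p = 0.0485, 0.0485, 0.0357 and 0.0478 by limma. With GSK-J4 it was CHTF8, another part of that loader, which fell by 0.71 (adjusted p = 0.0245 by limma) and was named after its values were seen. The list medians were -0.39 and -0.60. The calls with KDM6B siRNA came to 11 without KDM6B siRNA replicate 1, 5 without replicate 2 and 0 without any 1 of the 6 other arrays.

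Condensin and the SMC5/6 complex use related ATPase rings. Of their 13 measured genes 1 fell with GSK-J4, the condensin subunit gene NCAPG2, by 0.54 (SE 0.12, adjusted p = 0.0447 by limma), and it stood at -0.69 with KDM6B siRNA (adjusted p = 0.05002, just above the threshold). With KDM6B siRNA 0 of the 13 passed by limma and 5 had an unadjusted p under 0.05, while 1 of them passed after median centring, with an intensity trend, with robust eBayes and with the filter on dim genes. The list medians were -0.31 and -0.17.

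Of 11 measured genes for other looping and insulator factors, 0 passed in either comparison by limma, and 0 and 1 had an unadjusted p under 0.05. Their medians were 0.054 and -0.23, and their differences with GSK-J4 spanned -0.23 to 0.33. Of the 5 germline genes, CTCFL, the paralog of CTCF known as BORIS whose motif the study examined, lay at 3.68, 4.06, 3.72 and 3.86 on the DMSO and GSK-J4 arrays and at 4.28, 3.73, 3.63 and 3.43 on the siRNA arrays. CTCFL, SMC1B and RAD21L1 were not above background on any array, so their differences carry no direction. STAG3 and REC8 were above background on all 8 arrays, and with REC8 at -0.54 and -0.20 and STAG3 at 0.079 and -0.10 neither passed (adjusted p from 0.239 to 0.876 by limma).

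ESCO2 moved alongside genes of the dividing cell. Of 18 replication helicase and fork genes, 5 fell with GSK-J4 and 2 with KDM6B siRNA, and 0 rose, with medians of -0.50 and -0.74. Differences in the list were negative for 17 of 18 with GSK-J4 and for 18 of 18 with KDM6B siRNA. The exception was CDT1, at 0.58 with GSK-J4 and -0.98 with KDM6B siRNA (adjusted p = 0.179 and 0.0764 by limma). Its difference of effects was 1.56 (adjusted p = 0.0510 by limma, just above the threshold). CDT1 was named after its values were seen. POLE2, a subunit of DNA polymerase epsilon, fell in both by 0.80 and 0.96 (adjusted p = 0.0280 and 0.0413 by limma), and so did RRM2, a ribonucleotide reductase subunit, by 0.62 and 1.26 (adjusted p = 0.0312 and 0.0113 by limma). MCM10, which helps start the replicative helicase, and GINS1, a subunit of that helicase, fell with GSK-J4 by 0.95 and 0.65 (adjusted p = 0.0373 and 0.0408 by limma). All calls in this list were lost without any 1 of the DMSO, GSK-J4 or control siRNA arrays. Of 18 mitotic genes 9 fell with GSK-J4, including BUB1, a kinase of the spindle checkpoint, by 1.48, the centromeric histone gene CENPA by 1.36, the mitotic cyclin gene CCNB1 by 1.21 and the kinetochore motor gene CENPE by 1.02. With KDM6B siRNA 0 of these 18 passed by limma, with 13 at an unadjusted p under 0.05 and a median of -0.71. The mitotic calls with KDM6B siRNA came to 16 without KDM6B siRNA replicate 1 and 4 without replicate 2, and those with GSK-J4 to 1 or 2 without any 1 DMSO, GSK-J4 or control siRNA array.

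**Figure D3:**
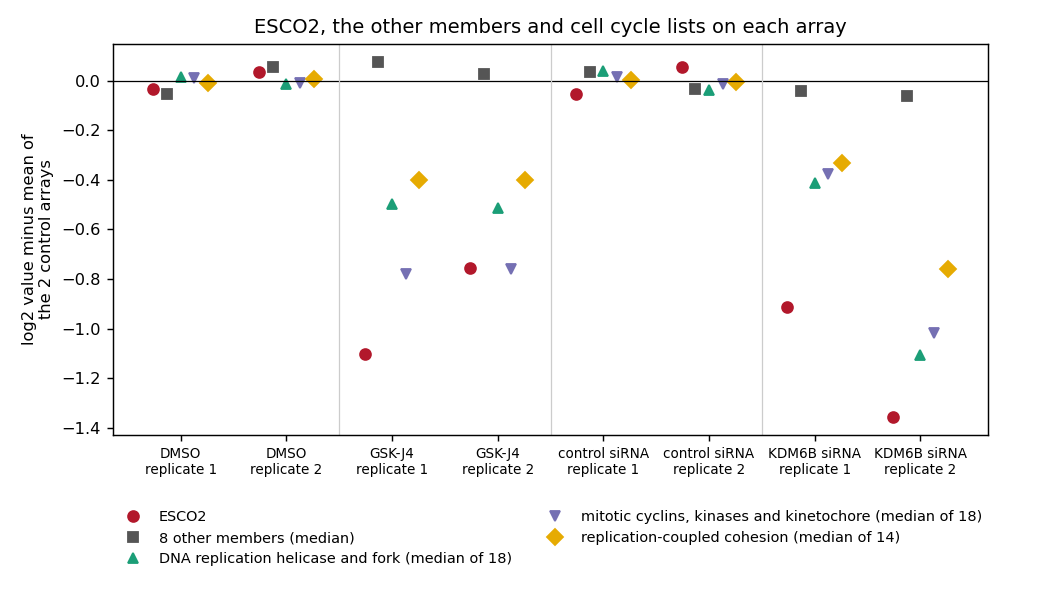
The vertical axis gives log2 values on each of the 8 arrays minus the mean of the 2 control arrays of the same experiment, for ESCO2, for the median of the 8 other members and for the medians of the replication, mitotic and fork cohesion lists. ESCO2 lies at -1.10 and -0.75 with GSK-J4 and at -0.91 and -1.36 with KDM6B siRNA, and the median of the 8 other members lies between -0.061 and 0.076 on all treated arrays.

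Array by array, ESCO2 stood at -1.10 and -0.75 with GSK-J4, where the replication list had medians of -0.50 and -0.51 and the mitotic list -0.78 and -0.76. With KDM6B siRNA ESCO2 stood at -0.91 and -1.36, where the replication list had medians of -0.41 and -1.10 and the mitotic list -0.38 and -1.02. ESCO2 was below the median of the replication list on all 4 treated arrays, and on GSK-J4 replicate 2 it lay at about the mitotic median. Single genes of the replication list fell further, such as MCM10 with GSK-J4 (-0.95) and RRM2 with KDM6B siRNA (-1.26). The part of cell cycle composition in the fall of ESCO2 was not tested.

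Across the 8 arrays the genes whose pattern was most like that of ESCO2, by Pearson correlation among 12973 genes above background in all groups, were DYNC2I2 (r = 0.991), GPN3 (r = 0.987), GTF3A (r = 0.985), CDC20 (r = 0.984) and GMNN (r = 0.982). Last in this order, CDC20 activates the anaphase-promoting complex and GMNN encodes geminin, which blocks a second round of origin licensing. In the drug and knockdown comparisons DYNC2I2 differed by -0.45 and -0.66, GPN3 by -0.34 and -0.43 and GTF3A by -0.55 and -0.56. CDC20 differed by -0.74 and -0.77 and GMNN by -0.78 and -1.01. Of all these values only the drug difference of CDC20 passed (adjusted p = 0.0381 by limma). For CTCF the closest genes were UBE3C (r = 0.993), PRR13 (r = 0.975), STYX (r = 0.970), CYP7B1 (r = 0.967) and NUP160 (r = 0.958), none of which passed in either comparison by limma. The 8 points are 4 groups of 2 and share treatment and control arrays, so these correlations are descriptions. They also span the drug and siRNA experiments, which differ in time and transfection. UBE3C, for example, lay at 7.70 and 7.97 with DMSO and at 8.28 and 8.20 with control siRNA, and such offsets enter the correlations.

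Markers of the cell line were present. All 7 measured adrenergic neuroblastoma markers of 9 listed were above background on all 8 arrays. Their mean level was 9.90 and 9.95 with control siRNA and 9.47 and 8.78 with KDM6B siRNA, against 10.12 and 10.05 with DMSO and 10.07 and 10.06 with GSK-J4. The markers did not move equally with KDM6B siRNA. TH, an enzyme of catecholamine synthesis, fell by 1.04 (adjusted p = 0.0196 by limma), DBH, a later enzyme of that pathway, stood at -2.32 (adjusted p = 0.0891) and GATA3, a transcription factor, at -0.013 (adjusted p = 0.980).

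The 5 measured mesenchymal markers, 4 to 5 of which were above background on an array, had mean levels of 7.09 and 6.97 with control siRNA, 7.87 and 7.42 with KDM6B siRNA, 6.92 and 6.93 with DMSO and 6.38 and 6.57 with GSK-J4. Their mean level was thus higher with the knockdown and lower with the drug, but the 5 markers did not move equally. Differences with KDM6B siRNA were positive for 4 and negative for 1, from -0.35 to 1.20. With GSK-J4 they were positive for 1 and negative for 4, from -0.92 to 0.32. By limma 0 of the 5 passed in either comparison and 2 had an unadjusted p under 0.05 in each. Above background on an array were 2 of 2 Schwann, 1 to 2 of 3 leukocyte, 2 to 3 of 4 epithelial and 2 to 3 of 3 endothelial markers measured. Of these, CD14, a monocyte receptor, fell with GSK-J4 by 0.66 (adjusted p = 0.0335 by limma), and no other passed in either comparison. TH, DBH, GATA3 and CD14 were named after their values were seen. The part of these levels in the fall of ESCO2 was not tested.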

How the data were processed

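RNA from BE2C cells was labelled with a whole-transcript kit and hybridized to Affymetrix Clariom S human arrays. Deposited values are log2 expression for each probe set on each array, made by the authors, and the submitters' processing notes name GCOS. How background, normalization and summarization were handled is not given in the sources here. The log2 scale was read from the range, 1.69 to 13.4, and array medians of 6.16 to 6.20 show a common scale, on which a change in total RNA per cell is not visible. Of 21448 transcript probe sets 17709 had 1 symbol in the platform annotation and 3739 are unnamed here. The highest-mean probe set stood for a gene, which left 17687 genes.

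The deposited values of all 8 arrays went into 1 limma fit (version 3.58.1, R 4.3.3, lmFit and eBayes, two-sided) with a coefficient per group, 4 residual and 4.18 prior degrees of freedom. Contrasts compared the inhibitor with DMSO, the knockdown with its control siRNA, and these effects with each other. The methods state a t-test for the arrays, which was run as an alternative. A gene was above background where it exceeded the 95th percentile of 612 negative control probe sets. The fit was tested on simulated data whose spread came from the groups other than KDM6B siRNA, so the wider spread of that group was not covered. The number of arrays limits the precision.

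The members and lists were chosen with earlier results of these data known. All 9 measured members are named, with KDM6B, up to 4 genes per further list with the largest difference among those that passed in either comparison, all genes of a list of 5 or fewer, and the 5 genes most correlated with CTCF, ESCO2 or another member that passed. Genes outside that rule are marked in the text. Alternatives were 10 settings (quantile normalization, median centring, the 4 arrays of a comparison, an intensity trend, robust eBayes, array weights by group, a background filter, the lowest-mean probe set, a replicate block and the methods' t-test) and leaving out each of the 8 arrays.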

Additional observations from a re-analysis of the deposited data

Results flagged for a closer look

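The effect of GSK-J4 and the effect of KDM6B siRNA on BUB1, a mitotic gene set beside ESCO2, differed by -1.06 (adjusted p = 0.0321 by limma), with BUB1 at 8.67 and 8.51 on DMSO, 7.13 and 7.10 on GSK-J4, 8.36 and 8.42 on control siRNA and 7.98 and 7.96 on KDM6B siRNA arrays. The 9 members gave no such difference. Groups of 2 arrays are too small for a test of outlying arrays.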

How the results depend on the processing

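ESCO2 kept its negative sign in all 18 alternatives of each comparison, and passed in 10 with GSK-J4 and in 7 with KDM6B siRNA. The cause of each lost call was not tested. With KDM6B siRNA its adjusted p was 0.0533 after quantile normalization, 0.0941 with array weights by group and 0.415 with the 4 arrays alone, so 0 members passed in these 3 settings. By the methods' t-test 0 members passed in either comparison (ESCO2 adjusted p = 0.233 and 0.686). Members called ranged over the left-out arrays from 0 to 1 with GSK-J4, 0 to 3 with KDM6B siRNA and 0 to 1 for the difference of effects.

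The labels do not say whether equal replicate numbers mark paired samples. The correlation of deviations over genes was 0.0879 for DMSO with GSK-J4 and -0.0357 for the siRNA groups. With 1 such value per pair of groups this cannot show whether the samples were paired. With a replicate block 0 members passed (ESCO2 adjusted p = 0.0717 and 0.109), and genes called were 225, 4 and 52, against 654, 107 and 163 for the drug, the knockdown and the difference of effects.

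Over all genes, 1908 passed in the drug comparison and 0 in the knockdown comparison with the 4 arrays alone (unadjusted p under 0.05 for 1527 in the latter), and 2116 and 27 with array weights. The methods' t-test called 0 in both (unadjusted 3324 and 1257). Leaving out arrays gave 55 to 2537, 0 to 3518 and 17 to 2486 genes.

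Of 416 values of the 8 other members under alternatives, 400 kept sign and side, 3 became calls and 13 changed sign. Quantile normalization turned CTCF in the knockdown comparison to 0.017 and the difference of effects of NIPBL to -0.011. Leaving out arrays turned others within these ranges. With GSK-J4 they were -0.099 to 0.0098 for STAG1, -0.069 to 0.24 for STAG2 and -0.034 to 0.15 for WAPL. With KDM6B siRNA they were -0.33 to 0.0034 for SMC3 and -0.58 to 0.14 for STAG2. For the difference of effects they were -0.063 to 0.48 for SMC1A, -0.054 to 0.67 for STAG2, -0.066 to 0.12 for NIPBL and -0.018 to 0.43 for ESCO2.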
